A study of Gallus gallus and Dromaius novaehollandiae with 14 samples.

Results

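RNA sequencing of embryonic bird skin epidermis was used to compare reticulate scale with feather and scutate scale in 2 species, the chicken and the emu. The comparison used 11 of the 14 libraries, chosen by their labels. The reticulate scale side held 3 libraries, 2 from chicken and 1 from emu. The other side held 8 libraries, namely 2 of feather and 2 of scutate scale in each species. The remaining 3 libraries came from claw and entered no test. Chicken eggs were incubated at 37.8 °C and emu eggs at 35.5 °C, so temperature and species cannot be told apart. In both species feather tracts were taken at Hamburger and Hamilton stage 33 to 34, scutate scale tracts at stage 37, reticulate scale tracts at stage 39 and claw tracts at stage 36. Reticulate scale was therefore the latest stage in every comparison, and stage and appendage cannot be told apart. The protease dispase loosened the epidermis so that it could be separated cleanly, after which total RNA was extracted and polyadenylated RNA was made into strand-specific libraries. No strain, sex, clutch or pooling of embryos is given for the groups, so the spread between replicates may be partly technical.

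Bird skin carries several kinds of appendage, most of which begin as a placode, a local thickening of the epidermis that exchanges Wnt, Eda, FGF, BMP and Shh signals with the dermis beneath it. Feathers are branched outgrowths, and scutate scales are the large overlapping plates on the front of the shank and toes. Reticulate scales are the small, rounded, radially symmetric scales of the foot pad. Setting reticulate scale against both other appendages, in a pair of distantly related birds, asks which expression differences accompany this appendage in each of them.

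The deposited table gives 8751 genes under chicken gene IDs for both species, with values taken here as the square root of TPM. TPM is the abundance of a transcript relative to all transcripts of a library, corrected for length. The data and the reference table used here pair 0 of the 8751 IDs with a gene name. Genes are therefore described as groups, 4 are given by ID, and neither pathways nor the epidermal identity of the samples could be checked against marker genes. Squared values summed to 537026 to 575133 TPM in the chicken libraries compared and to 550000 in each emu library. Only the emu columns are labelled as scaled, and how they were scaled is not given in the sources used here. The emu values may therefore not be plain TPM. The number of reads behind the values is unknown. In these bulk samples a smaller share of a cell type and less RNA per cell cannot be told apart. Levels were analysed as log2(TPM + 1), which understates the change of genes with low TPM. The 7456 genes with at least 1 TPM in at least 2 of the 11 libraries were tested.

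Reticulate scale lay nearer to scutate scale than to feather in both species. The distance between 2 libraries was taken as the SD over the tested genes of their log2(TPM + 1) difference. In chicken the 4 pairs of a feather and a reticulate scale library were 0.818 to 0.880 apart, and the 4 pairs of a scutate and a reticulate scale library 0.555 to 0.741 apart. In emu these distances were 0.758 to 0.761 and 0.627 to 0.657, each over 2 pairs. The ranges did not overlap in either species. Replicates of one group were 0.268 to 0.423 apart, closer than any pair of libraries from different appendages of the same species. Distances that share a library are not independent, and no test was made of them.

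**Figure D1:**
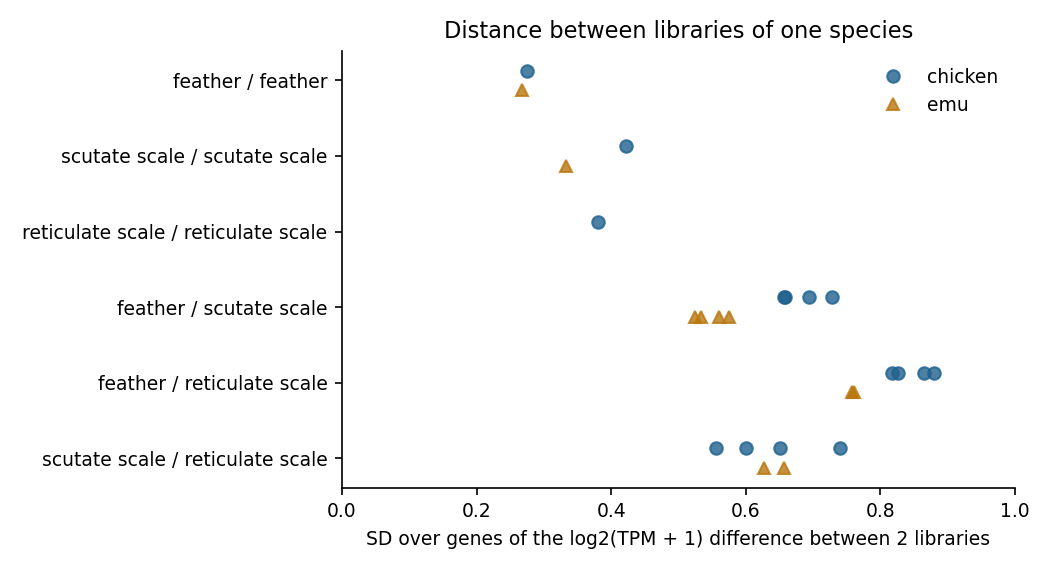
The horizontal axis gives the SD, over the tested genes, of the log2(TPM + 1) difference between 2 libraries of one species, and each point is 1 pair of libraries (circles chicken, triangles emu). Feather and reticulate scale pairs lie farthest right, at 0.818 to 0.880 in chicken and 0.758 to 0.761 in emu.

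More genes were lower than higher in reticulate scale when both species were fitted together, a majority that turned when either chicken reticulate scale library was left out. Among the genes called in that fit, changes of at least 1 log2 unit were more often increases. With species as a block, 906 of the 7456 tested genes (12.2%) differed between reticulate scale and the other side at an adjusted p under 0.05 (limma, Benjamini-Hochberg). Of these, 343 (4.6% of the tested genes) were higher in reticulate scale and 563 (7.55%) were lower. The split was 413 higher to 490 lower after median-ratio rescaling and 362 to 466 after quantile normalization. Among the 906, a difference of at least 1 log2 unit was reached by 130 of the higher and 94 of the lower genes. Called or not, 304 tested genes were at least 2-fold higher and 332 at least 2-fold lower in chicken reticulate scale. In emu, with 1 reticulate scale library, these counts were 429 and 263. Over all tested genes, the difference had a median of -0.04 log2 units. The count rested strongly on single libraries. It fell to 32 (18 higher and 14 lower) without chicken reticulate scale replicate 1, to 323 (173 and 150) without chicken reticulate scale replicate 2, to 354 and 493 without chicken feather replicate 1 and 2, and to 592 without emu feather replicate 1. Without the single emu reticulate scale library it was 849. In the fit of all 11 libraries that emu library was assumed to vary like the others.

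The count depended on which appendage stood on the other side. Against the 4 feather libraries alone, reticulate scale differed in 1697 genes (22.8%), of which 593 (7.95%) were higher and 1104 (14.8%) lower. A difference of at least 1 log2 unit was reached by 211 of these higher and 230 of these lower genes. Against the 4 scutate scale libraries alone it differed in 74 genes (0.992%), of which 43 (0.577%) were higher and 31 (0.416%) lower. Both fits had the same number of libraries and share the reticulate scale ones. At an unadjusted limma p under 0.05 the counts were less far apart, at 2871 against feather and 1566 against scutate scale. Scutate scale replicates were 0.422 apart in chicken and 0.333 in emu, farther than feather replicates at 0.276 and 0.268. Whether this spread lowered the scutate scale count was not tested. The other side was itself split. Scutate scale differed from feather, averaged over species, in 1405 genes (18.8%), with 480 (6.44%) higher and 925 (12.4%) lower in scutate scale. After median-ratio rescaling this split was 634 to 801, and after quantile normalization 667 to 708. Leaving out a feather library brought the scutate scale and feather count down to 784 and 688 for chicken replicates 1 and 2, and to 794 and 804 for emu replicates 1 and 2. In the comparison of reticulate scale with both, this difference counted as spread. A model of the 6 group means removes it from the spread, along with any unequal effect of appendage in the species. That model also weights the species equally, so the single emu reticulate scale library counts for more. It called 2640 genes (35.4%), 1121 (15.0%) higher and 1519 (20.4%) lower.

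A second description required no model. A gene was taken as outside the range within a species where all of its reticulate scale libraries lay above, or all below, every feather and scutate scale library of that species. In chicken, with 2 reticulate scale libraries, 1039 genes (13.9%) lay above and 1825 (24.5%) below. In emu, where 1 library had to pass, 2401 genes (32.2%) lay above and 2327 (31.2%) below. Above the range in both species were 487 genes (6.53%), which is 46.9% of the chicken list and 20.3% of the emu list. Below it in both were 879 genes (11.8%), or 48.2% of the chicken list and 37.8% of the emu list. Without chicken reticulate scale replicate 2, the genes above the range in both species numbered 972 and those below it 1044, so the excess of lower genes was much smaller. Without replicate 1 instead they numbered 591 and 1195, a larger excess. Leaving out a library can only add genes to these counts. With all libraries but after median-ratio rescaling, 628 genes lay above and 775 below. Another 506 genes (6.79%) lay outside on opposite sides, 185 above in chicken and below in emu and 321 the other way round. Of the genes called in the fit of both species, 298 of the 343 higher and 522 of the 563 lower ones were outside the range in both species. The fit and the ranges use the same libraries.

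The emu library was then read at genes sorted by the chicken libraries, which share no sample with it. Of the 1039 genes above the range in chicken, 46.9% were above it in emu and 17.8% below, against 32.2% and 31.2% over all tested genes. Of the 1825 genes below the range in chicken, 48.2% were below it in emu and 17.6% above. These shares changed mainly between chicken differences of opposite sign. Where the chicken difference exceeded 2 log2 units, 42 of 80 genes (52.5%) were above the emu range, and between 0 and 0.5 log2 units 41.4% of 2336 genes were. Where it was -2 or less, 34 of 78 genes (43.6%) were below the emu range, and between -0.5 and 0 it was 38.3% of 3363 genes. Sizes carried over only in part. Genes over 2 log2 units higher in chicken had a median of 2.46 there and 0.49 in emu, and those at -2 or less had a median of -2.41 there and -0.30 in emu. Across the 7456 genes, which are not independent replicates, the difference in chicken correlated with that in emu at a Pearson r of 0.264 and a Spearman rho of 0.287. Taken separately, reticulate minus feather gave an r of 0.288 between the species and reticulate minus scutate scale an r of 0.203. With chicken reticulate scale replicate 1 or 2 alone, the r against emu was 0.256 or 0.250.

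**Figure D2:**
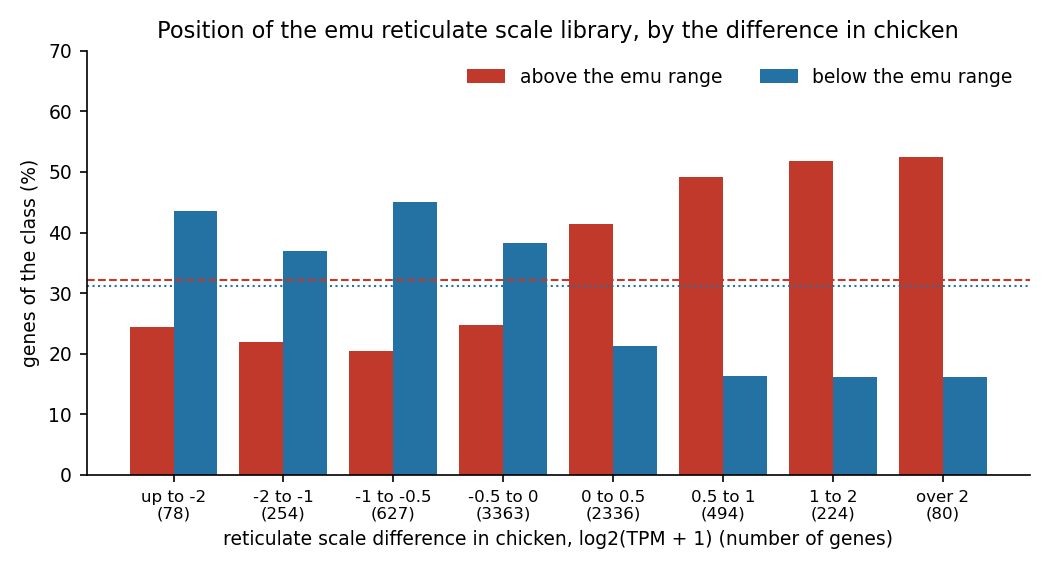
Bars give the percentage of genes for which the single emu reticulate scale library lay above (red) or below (blue) all 4 emu feather and scutate scale libraries, for classes of the chicken difference in log2(TPM + 1), with the number of genes in brackets. Dashed and dotted lines mark these shares over all tested genes, 32.2% and 31.2%, and the red bars exceed the blue ones in every class above 0 and fall short of them in every class below 0.

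A fit of the 6 chicken libraries alone called 310 genes (4.16%), 132 higher (1.77%) and 178 lower (2.39%) in reticulate scale. Of the 132 higher genes, 68 (51.5%) were above the emu range and 27 (20.5%) below it. Of the 178 lower genes, 98 (55.1%) were below the emu range and 22 (12.4%) above. The median emu difference was 0.25 log2 units for the former and -0.23 for the latter, while their chicken medians were 1.42 and -0.79. The direction of the chicken majority moved with the scaling, at 142 higher and 110 lower after median-ratio rescaling and at 52.7% higher after quantile normalization, against 42.6% as deposited. The chicken count also rested on single libraries. It was 3 and 22 without reticulate scale replicate 1 and 2, 14 and 8 without feather replicate 1 and 2, and 488 without scutate scale replicate 2.

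The genes outside the range in both species were mostly changed by less than 2-fold. Among the 487 genes above the range, the median log2 difference was 0.63 in chicken and 0.59 in emu. Measured against feather alone their median was 0.73 in chicken and 0.66 in emu, and against scutate scale alone 0.50 and 0.52. Among the 879 genes below the range the medians were -0.41 in chicken and -0.37 in emu. Against feather they were -0.49 and -0.44, and against scutate scale -0.33 and -0.29. These sizes are a description, since the genes were picked by these libraries. At least 2-fold apart in both species were 67 of the 487 and 46 of the 879 genes. Over all tested genes, 78 (1.05%) were at least 2-fold higher and 58 (0.778%) at least 2-fold lower in reticulate scale in both species.

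**Figure D3:**
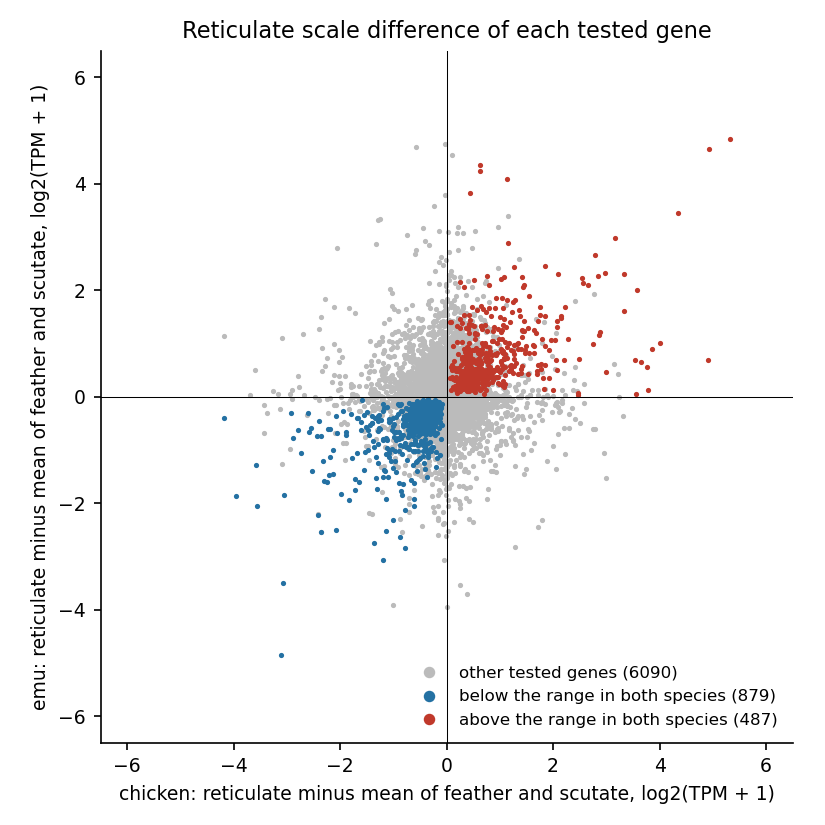
Each point is 1 tested gene, with its reticulate scale minus mean feather and scutate scale difference in log2(TPM + 1) in chicken (horizontal) and emu (vertical). The 487 genes above the range in both species (red) and the 879 below it (blue) lie in opposite corners by the way they were picked, most of them within 1 log2 unit of 0, and the remaining tested genes are grey.

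By the median, the genes below the range in both species were more abundant than the tested genes as a whole. The median of the mean TPM over the 11 libraries was 59.6 for the 879 genes below the range, 22.3 for the 487 above it and 25.6 over all tested genes. A mean TPM of at least 100 was reached by 28.6% of the genes below, 8.62% of those above and 12.2% of all tested genes. By abundance class, the share called in the fit of both species rose from 4.02% under 2 TPM to 28.3% from 200 TPM. Over all tested genes it was 12.2%, with 4.6% higher and 7.55% lower. Among the 378 genes with a mean of at least 200 TPM, 88 were called lower and 19 higher in reticulate scale. From 50 to 200 TPM these counts were 269 and 65 of 1678 genes, and from 10 to 50 TPM 156 and 175 of 3433. Among the 1246 genes with a mean of 2 to 10 TPM they were 41 and 64, and under 2 TPM 9 and 20 of 721. These classes are given for the values as deposited and all 11 libraries only. The lower majority of that fit was smaller after rescaling and turned without either chicken reticulate scale library.

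In summed abundance, the genes above the range took up a larger part of the reticulate scale libraries. The 487 genes made up 7.03% and 6.41% of the listed TPM in the chicken reticulate scale libraries and 6.69% in the emu one. They made up 2.88% in both chicken feather libraries and 3.57% and 3.64% in the emu ones. Scutate scale lay between, at 3.96% and 4.19% in chicken and 4.30% and 4.49% in emu. The 879 genes below the range showed the reverse order. They made up 18.7% and 19.4% of the TPM of the chicken feather libraries, 16.8% and 17% of scutate scale and 13.1% and 13.2% of reticulate scale. In emu they took up 19.3% and 19.4% of feather, 17.5% and 17.6% of scutate scale and 14% of reticulate scale. In both species the sums of these 3 appendages followed the order of their stages. The sums of claw did not keep to that order, though the chicken claw medians of the 487 genes, given below, did. The claw libraries, which had no part in choosing the genes, gave 4.52% and 4.70% in chicken and 6.33% in emu for the 487 genes. For the 879 genes claw gave 15.5% and 15.6% in chicken and 17.1% in emu. In both sums claw, taken at stage 36, thus lay between scutate and reticulate scale in all 3 libraries. The median TPM over the same genes placed claw there only in emu for the 879 genes. For the 487 genes it was 13.1 and 15.3 in chicken claw, between feather at 12.3 and 12.9 and scutate scale at 16.3 and 17.9. That is also the order of stages. Emu claw, at 17.4, lay above feather at 15.6 and 15.0 and within scutate scale at 17.3 and 18.9. For the 879 genes chicken claw, at 39.1 and 41.5, lay below reticulate scale at 45.1 and 44.7. Over all tested genes the median TPM was also lower in chicken claw, at 15.32 and 17.23. It was 21.66 to 23.65 in the other chicken libraries, and the claw medians were not adjusted for this. Any relation of the claw values to stage was not tested. A single gene supplied 25.2% of the summed TPM of the 487 genes in emu claw and at most 18.6% in any other library.

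**Figure D4:**
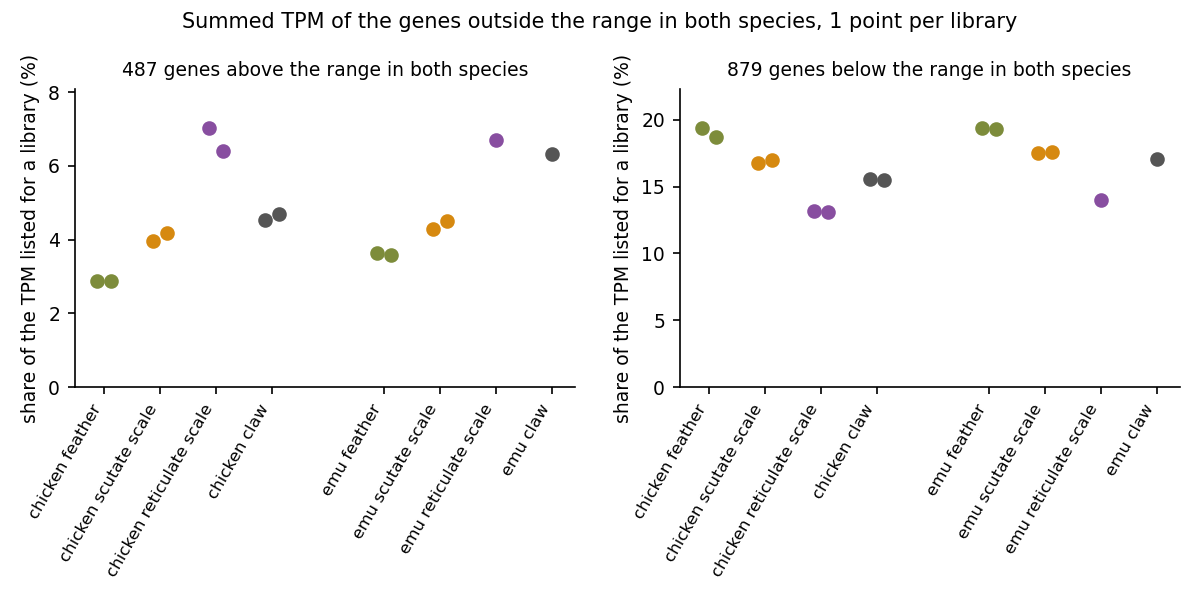
The vertical axes give the share of a library's listed TPM held by the 487 genes above (left) and the 879 genes below (right) the range in both species, with 1 point per library in the order feather, scutate scale, reticulate scale and claw for each species. Reticulate scale is highest on the left, at 6.41% to 7.03%, and lowest on the right, at 13.1% to 14%, which the choice of genes fixes, while scutate scale lies between it and feather and the claw points were not used in the choice.

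Few genes changed by a large factor in both species. In the fit of both species 4.6% of all tested genes were called higher and 7.55% lower. Calls among the genes below are a description, since these genes were picked for large differences in the same libraries. At least 4-fold higher in reticulate scale in both species were 13 of the 487 genes, of which 10 were called in that fit. In chicken their median TPM went from 2.19 in feather through 14.2 in scutate scale to 50.9 in reticulate scale, with 70.8 in claw. In emu it was 2.70, 11.8, 59.1 and 55.9 in the same order. At least 4-fold lower in both were 6 of the 879 genes, all 6 of them called. In chicken their median TPM went from 66.3 in feather through 14.3 in scutate scale to 2.92 in reticulate scale, with 2.71 in claw, and in emu the values were 38.8, 25.1, 3.61 and 0.952. In both of these sets scutate scale lay between feather and reticulate scale. The claw median lay past that of reticulate scale, away from feather, in every case except the higher set in emu. This did not hold for the larger sets at least 2-fold apart in both species. Among the 67 higher genes the claw median was 14.1 TPM in chicken and 19.4 in emu, against 30.9 and 37.7 in reticulate scale. Among the 46 lower genes it was 7.38 in chicken and 5.46 in emu, against 4.09 and 5.09. These claw medians were not adjusted for the lower median of chicken claw over all tested genes. Genes that crossed a level of 1 TPM were rare. Under 1 TPM in every feather and scutate scale library and at least 2 TPM in every reticulate scale library were 11 genes in chicken and 14 in emu. The reverse, at least 2 TPM on the other side and under 1 TPM in reticulate scale, held for 18 genes in chicken and 25 in emu. These are 0.148% to 0.335% of the tested genes, and while 0 genes met either criterion in both species, lists this short say little about an overlap.

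The 2 IDs with the largest increase and the 2 with the largest decrease, among genes that were called and outside the range in both species, show this pattern library by library. No name or function can be given for them here. Reticulate scale lies outside feather and scutate scale of the same species for each ID because the IDs were picked for it. ENSGALG00000014505 stood at 175 and 246 TPM in chicken reticulate scale, 3.99 and 66.0 in scutate scale and 0.522 and 0.447 in feather. In emu it stood at 176 TPM in reticulate scale, 7.49 and 15.8 in scutate scale and 3.27 and 1.40 in feather. The chicken scutate scale replicates were far apart, and that both lay under chicken reticulate scale follows from how the ID was picked. It was higher in reticulate scale by 5.14 log2 units (SE 1.05, limma adjusted p = 0.0182). In claw it reached 36.8 and 105 TPM in chicken and 244 TPM in emu, the last above every reticulate scale library except chicken replicate 2.

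ENSGALG00000009415 stood at 175 and 182 TPM in chicken reticulate scale, 11.7 and 25.7 in scutate scale and 0.809 and 0.922 in feather. In emu it stood at 291 TPM in reticulate scale, 19.0 and 25.2 in scutate scale and 5.60 and 4.15 in feather. The 3 appendages did not overlap in either species, and the increase was 4.83 log2 units (SE 0.83, limma adjusted p = 0.0108). In claw it was low in chicken, at 0.642 and 4.90 TPM, whereas the emu claw library, at 42.6 TPM, lay above every emu feather and scutate scale library and below emu reticulate scale. Scutate scale was also above feather for this ID, by 2.64 log2 units averaged over species (SE 0.22, limma adjusted p = 0.000203).

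ENSGALG00000016584 was among the more abundant transcripts of feather, at 978 and 945 TPM in chicken and 866 and 809 in emu. Scutate scale held 514 and 269 TPM in chicken and 248 and 258 in emu, and reticulate scale 33.0 and 140 TPM in chicken and 14.9 in emu. The groups did not overlap within a species. Reticulate scale was lower, with a log2 difference of -3.77 (SE 0.63, limma adjusted p = 0.0102). Claw was lower still in 2 of its 3 libraries, at 2.89 and 67.3 TPM in chicken and 1.22 in emu.

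ENSGALG00000014908 stood at 79.0 and 112 TPM in chicken feather, at 38.4 and 8.43 TPM in scutate scale and at 5.64 and 2.90 TPM in reticulate scale. In emu it stood at 76.1 and 80.6 TPM in feather, 22.7 and 19.6 in scutate scale and 2.71 in reticulate scale. Again no group overlapped another within a species, with a log2 difference of -3.23 (SE 0.71, limma adjusted p = 0.022). In claw it was listed at 0 and at 1.11 TPM in chicken and at 0.690 TPM in emu. The interaction of species and reticulate scale was not called for any of the 4 IDs, with limma adjusted p of 0.505 to 0.957. That term had an SE of 1.24 to 2.26 log2 units for these IDs. They were also picked for lying on the same side in both species, so it tells little about a species difference here. In the fit of chicken alone, with 6 libraries, their adjusted p (limma) was 0.0797 to 0.139. Without chicken reticulate scale replicate 1, all 4 had an adjusted p over 0.05 in the limma fit of both species, at 0.0625 to 0.0742, with the direction kept. Without chicken reticulate scale replicate 2 it was 0.0562 for ENSGALG00000014505 and 0.0677 for ENSGALG00000014908, and without the emu reticulate scale library it was 0.0629 for the latter. With scutate scale alone on the other side it was 0.0795 for ENSGALG00000014505, 0.057 for ENSGALG00000016584 and 0.0808 for ENSGALG00000014908 in limma.

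**Figure D5:**
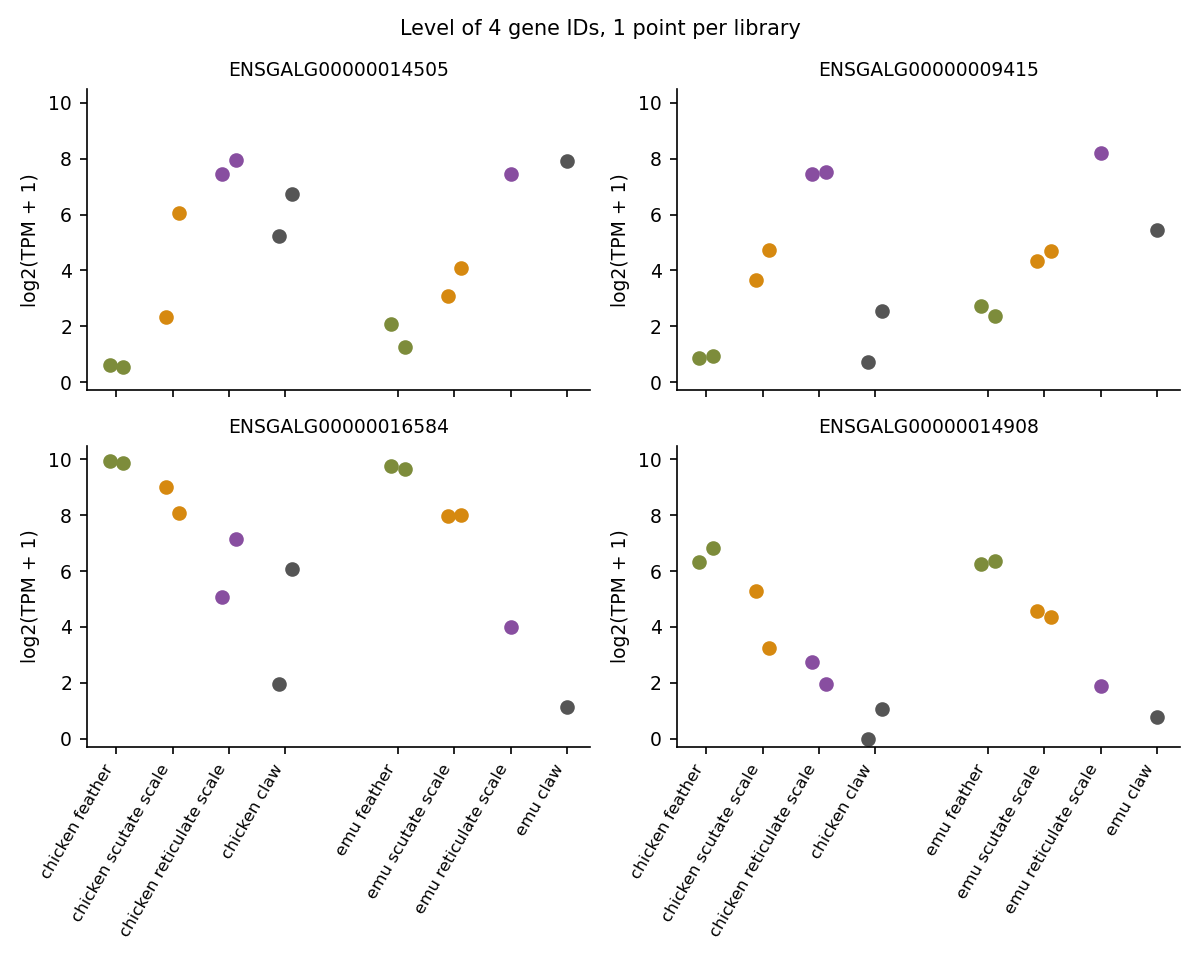
Each panel gives 1 gene ID, with log2(TPM + 1) on the vertical axis and 1 point per library in the order feather, scutate scale, reticulate scale and claw for chicken and then emu. In the 2 upper panels reticulate scale lies above feather and scutate scale and in the 2 lower panels under them, which the choice of IDs fixes. Scutate scale lies between feather and reticulate scale in every panel, and claw varies from panel to panel.

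Some genes differed between the species in how reticulate scale stood to the other side. In limma, the interaction term passed an adjusted p of 0.05 for 228 of the 7456 genes (3.06%). For 150 (2.01%) the reticulate scale difference was higher in emu, with a median of 1.00 log2 units in emu and -0.32 in chicken. For the other 78 (1.05%) it was lower in emu, with a median of -0.90 in emu and 0.71 in chicken. Of the 228, 50.9% lay outside the range on opposite sides in the species, 72 were outside in emu alone, 20 in chicken alone and 20 on the same side in both. Over all 7456 tested genes 6.79% lay on opposite sides and 18.3% on the same side. Outside in emu alone were 1593 genes above and 1263 below, and in chicken alone 367 above and 625 below. Genes outside in a single species or on the same side were thus no more frequent among the 228. The positions of the 228 are a description, since genes picked from these libraries for a difference between the species tend to fall on opposite sides. The split of 150 to 78 was 122 to 105 after median-ratio rescaling and 138 to 136 after quantile normalization. The term rests on the single emu reticulate scale library and moved with single chicken and emu libraries. The count was 62 and 90 without chicken reticulate scale replicate 1 and 2, 136 and 145 without chicken feather replicate 1 and 2, 145 and 141 without emu feather replicate 1 and 2, and 365 without chicken scutate scale replicate 2.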

How the data were processed

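The authors deposited 1 table of 8751 genes, taken here to hold square roots of TPM. No header says so, and the inference rests on the emu columns, whose squared values each add up to 550000. The submitters' processing notes name CASAVA, TopHat2 2.0.6 and HTSeq 0.5.3p9 without roles, and the genome builds and the assignment of emu transcripts to chicken IDs are not given in the sources used here. Columns were matched to samples by the code in each title. Values were squared, and log2(TPM + 1) was fitted with limma 3.58.1 in R 4.3.3 (lmFit, eBayes with an intensity trend) on species plus reticulate scale, with Benjamini-Hochberg adjustment over 7456 genes and calls under 0.05. The code was tested on simulated data with planted changes of 1.5 log2 units and no other difference between appendages. That checks the code and does not give the error rate in these data. Python 3.11.15, pandas 2.3.3, numpy 2.4.6, scipy 1.17.1 and matplotlib 3.10.9 made the other values. Replicates shared 0 identical values above 0. P-values set each difference against the spread between these libraries, which in the main fit includes the difference of feather and scutate scale. Whether that covers the spread between embryos is unknown, since pooling is not given. The libraries and lists compared were chosen with earlier results of these data known. The IDs named are the 2 with the largest positive and the 2 with the largest negative log2 difference among called genes outside the range in both species. Planned lists of pathway and cell type genes were not used, since 0 IDs had a symbol. Alternatives covered the pseudocount, filters, scaling, variance model, other side and single libraries.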

Additional observations from a re-analysis of the deposited data

Results flagged for a closer look

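By the limma interaction term (adjusted p under 0.05), reticulate scale stood differently to the other 2 appendages in chicken and emu for 228 genes, and 1366 genes passed an unadjusted p under 0.05. The emu side of this term is 1 library, and its spread was taken from the other libraries. The 4 gene IDs named above were not called for this term, but they were picked for lying on the same side in both species. Groups of 1 or 2 samples were too small to look for single libraries that stand apart.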

How the results depend on the processing

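The count for reticulate scale against feather plus scutate scale, 906, was 224 at an absolute log2 difference of at least 1, 1697 with feather only on the other side, 74 with scutate scale only and 2640 with the 6 group means. Leaving out each library in turn gave 32 to 1064. The chicken count of 310 was 162 at a difference of at least 1, and 3 to 488 with a library left out. The interaction ranged from 62 to 365 with a library left out. The scutate scale minus feather count was 300 at a difference of at least 1, and 688 to 1505 with a library left out. Genes outside the range in both species numbered 1401 to 2016 with 1 library fewer. Without the emu reticulate scale library neither that count nor the interaction can be formed. A replicate block gave counts of 151, 34, 45 and 909 in the order above. Whether equal replicate numbers mark paired samples is not given. Same-numbered deviations correlated at -0.23 to 0.189, but with 2 libraries per group these values cannot decide it. The block also ended the calls of ENSGALG00000014505 (limma adjusted p = 0.0551) and ENSGALG00000014908 (0.0646). The cause of these shifts was not tested. Under the pseudocount, filter, scaling, trend and robust settings, and under the square root of TPM, which was chosen after seeing the data, all counts stayed within 1.5 times. The 4 IDs kept their direction in all 23 settings each, and passed the threshold in 18 to 22 of them. The depth is unknown.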
